A study of Mus musculus with 6 samples.

Results

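The genes described here carry glucose into the cell and break it down to lactate. They were taken by name: the Slc2a glucose transporters, Slc5a1, the lactate carriers Slc16a1 and Slc16a3, the enzymes of glycolysis, the pyruvate dehydrogenase kinases and the glycogen enzymes. The choice gave 48 of the 21900 genes in the tables, and 43 of them reached 1 FPKM in at least 3 libraries and were tested. FPKM stands for fragments scaled to transcript length and to the mapped fragments of the library, so levels can be set side by side between genes. Pygm, Slc2a2, Slc2a5 and Slc2a7 were among the 5 that did not reach that level.

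RNA-seq had been made from whole uteri on gestational day 4, with 3 libraries labelled Mettl3 d/d and 3 labelled Mettl3 f/f. Mettl3 is the catalytic subunit of the complex that writes N6-methyladenosine on RNA. The series title calls the tissue Mettl3-deleted, and by the usual notation d/d is the deleted and f/f the floxed allele. In both genotypes the females were 6 to 8 weeks old and had been mated with fertile males, and the day of the vaginal plug counted as day 1. The strain, the Cre line that made the deletion, the cells in which it acts and the deleted stretch of the gene are unstated in the sources used. The labels do not say that replicates are separate animals, so every p-value measures the spread between these libraries, which may be technical.

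Glycolysis splits glucose into pyruvate, which is either reduced to lactate or burned in the mitochondria. Glucose enters through the Slc2a proteins, is held in the cell by hexokinase, and is committed to breakdown at phosphofructokinase. The uterus takes up glucose and stores glycogen around implantation, and the change of stromal cells into decidual cells is known to go with a rise of glycolysis.

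Mettl3 itself was at 42.9, 30.1 and 46.5 FPKM in d/d libraries, against 30.3, 29.8 and 26.3 FPKM in f/f libraries. The level was thus not lower in d/d libraries (log2 difference 0.43, 95% interval -0.02 to 0.88, limma, Benjamini-Hochberg adjusted p = 0.202). A gene total checks the labels only if the deleted stretch carries many of its reads, so genotype is used here as labelled. The tables summed to 535043 to 625575 FPKM and listed 15978 to 16359 genes above 0, and the depth is unknown because the tables hold no read counts. Across genes, the Spearman correlation was 0.951 to 0.965 between d/d libraries and 0.984 to 0.988 between f/f libraries. Replicate 1 of d/d stood apart from its group, with 0.967 to 0.968 to the f/f libraries and 0.962 and 0.965 to d/d replicates 2 and 3. Of 12979 genes tested, 453 passed as higher and 494 as lower in d/d uteri. All 10 epithelial, 8 stromal and 8 smooth muscle markers examined were above 0 in each library.

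In d/d uteri, 6 of the 43 tested genes fell and 1 rose. Slc2a3, the high-affinity transporter GLUT3, fell 20.2-fold on group means and gave up its place as the leading Slc2a transcript. Pfkfb3, which makes the activator of phosphofructokinase, fell 4.35-fold, and the transporter gene Slc2a12 fell 5.38-fold. Pfkm, Pdk3 and Ugp2 fell by less, and Aldoc, the brain form of aldolase, rose 17.8-fold. The 7 called genes compare with 7.30% of all genes tested, the 1 called higher with 3.49%, and the 6 called lower with 3.81%. The median log2 difference over the 43 genes was 0.02, the same as over all genes tested. Without d/d replicate 1, the same test called 6 genes higher and 7 lower. Without d/d replicate 2 it called 2 higher and 6 lower, and without d/d replicate 3 it called 3 higher and 4 lower. Without any single f/f library it called none of the 43 genes. An exact two-sided permutation test over the 6 libraries gave p = 0.1 for each of the 7 called genes, which is the smallest that 3 against 3 can give. In bulk tissue, fewer cells of a type and less RNA per cell cannot be told apart.

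**Figure D1:**
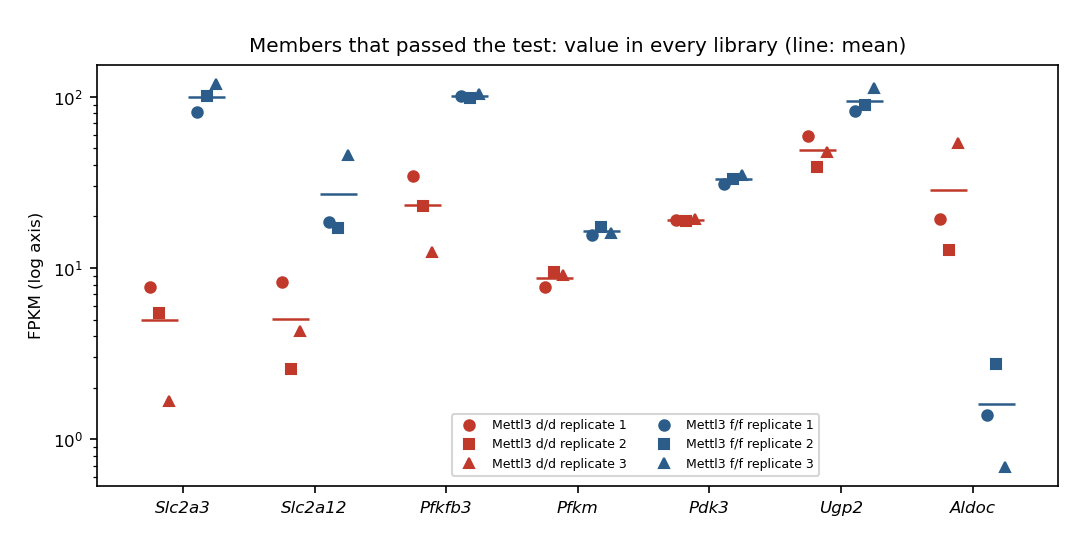
FPKM on a log axis of the 7 genes that passed the test, 1 point per library, with Mettl3 d/d libraries left of Mettl3 f/f libraries and a bar at each group mean. Slc2a3 lies between 1.68 and 7.73 FPKM in d/d libraries, against 80.9 to 119 FPKM in f/f libraries, and in none of the 7 genes do the groups overlap.

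The facilitative transporters of the Slc2a family come first. Slc2a3 was at 7.73, 5.43 and 1.68 FPKM in d/d libraries, against 80.9, 100.4 and 119 FPKM in f/f libraries. Every d/d library was thus far below every f/f library, and d/d replicate 3 was the lowest. The means were 4.95 ± 3.06 FPKM in d/d and 100.1 ± 18.9 FPKM in f/f libraries (SD, n = 3 each), a log2 difference of -4.23 with SE 0.44 (limma, Benjamini-Hochberg adjusted p = 0.00916). GLUT3 binds glucose tightly and is best known from neurons and trophoblast. The gene lies at chr6:122727809-122801640 on the minus strand of GRCm38. Without f/f replicate 1, 2 or 3 the limma difference was -4.37, -4.22 and -4.10, with adjusted p of 0.0631, 0.0637 and 0.0507.

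Slc2a12 encodes GLUT12. It was at 8.24, 2.56 and 4.30 FPKM in d/d libraries, against 18.6, 17.1 and 45.5 FPKM in f/f libraries. The groups did not overlap, but f/f replicate 3 was more than 2-fold above the other f/f libraries. The log2 difference was -2.19 with SE 0.48 (limma, Benjamini-Hochberg adjusted p = 0.0492). The call was lost in 10 of the 13 other settings tried, with adjusted p of 0.0679 when d/d replicate 2 was left out, 0.0871 without replicate 3 of d/d, and 0.149, 0.137 and 0.128 without f/f replicate 1, 2 or 3. Slc2a12 lies at chr10:22645011-22704285 on the plus strand. Its exons share 407 bases with Tbpl1 on the other strand, and the labels do not say whether strand was used in counting.

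The remaining transporters did not pass. Slc2a1, the widespread GLUT1, was at 14.9, 26.9 and 40.9 FPKM in d/d libraries, against 14.2, 15.3 and 13.1 FPKM in f/f libraries. Its d/d libraries ran from the f/f level to more than 2-fold above it (log2 difference 0.81, 95% interval -0.02 to 1.63, limma, Benjamini-Hochberg adjusted p = 0.197). Slc2a6, GLUT6 of intracellular membranes, was at 6.70, 17.0 and 4.81 FPKM in d/d libraries, against 2.70, 2.80 and 2.81 FPKM in f/f libraries. All d/d libraries were above all f/f libraries, with d/d replicate 2 apart from the rest (adjusted p = 0.107, and 0.0469 without that library, both limma with Benjamini-Hochberg). Slc2a13, the proton-coupled inositol carrier, was at 0.636, 1.09 and 0.296 FPKM in d/d libraries, against 2.48, 2.09 and 1.89 FPKM in f/f libraries (adjusted p = 0.0619, limma with Benjamini-Hochberg, and 0.0324 without d/d replicate 2). These groups did not overlap either. Slc2a4, the insulin-responsive GLUT4, was at 3.20, 3.18 and 13.9 FPKM in d/d libraries, against 9.99, 12.5 and 5.02 FPKM in f/f libraries, so the ranges crossed. Slc2a9, a urate carrier, Slc2a8 and Slc2a10 stayed between 0.747 and 6.91 FPKM in all libraries, and Slc2a2, Slc2a5 and Slc2a7 reached no more than 0.495 FPKM. Slc2a1 and Slc2a4 are given by library because of values already seen.

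Because FPKM is scaled to length, the 12 Slc2a genes can be summed. The sum was 49.7, 68.7 and 73.9 FPKM in d/d libraries, against 139.8, 161 and 198 FPKM in f/f libraries. Slc2a3 made up 15.6%, 7.91% and 2.27% of it in d/d libraries, against 57.9%, 62.6% and 60.1% in f/f libraries. Slc2a1 made up 30.1%, 39.2% and 55.3% in d/d libraries, against 10.1%, 9.53% and 6.62% in f/f libraries. Slc2a3 was thus the first transcript of the family in each f/f library, and Slc2a1 in each d/d library. The shares of Slc2a6 were 13.5%, 24.8% and 6.50% in d/d libraries and 1.93%, 1.74% and 1.42% in f/f libraries. A share rises when another member falls, and the level of Slc2a1 did not pass the test.

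**Figure D2:**
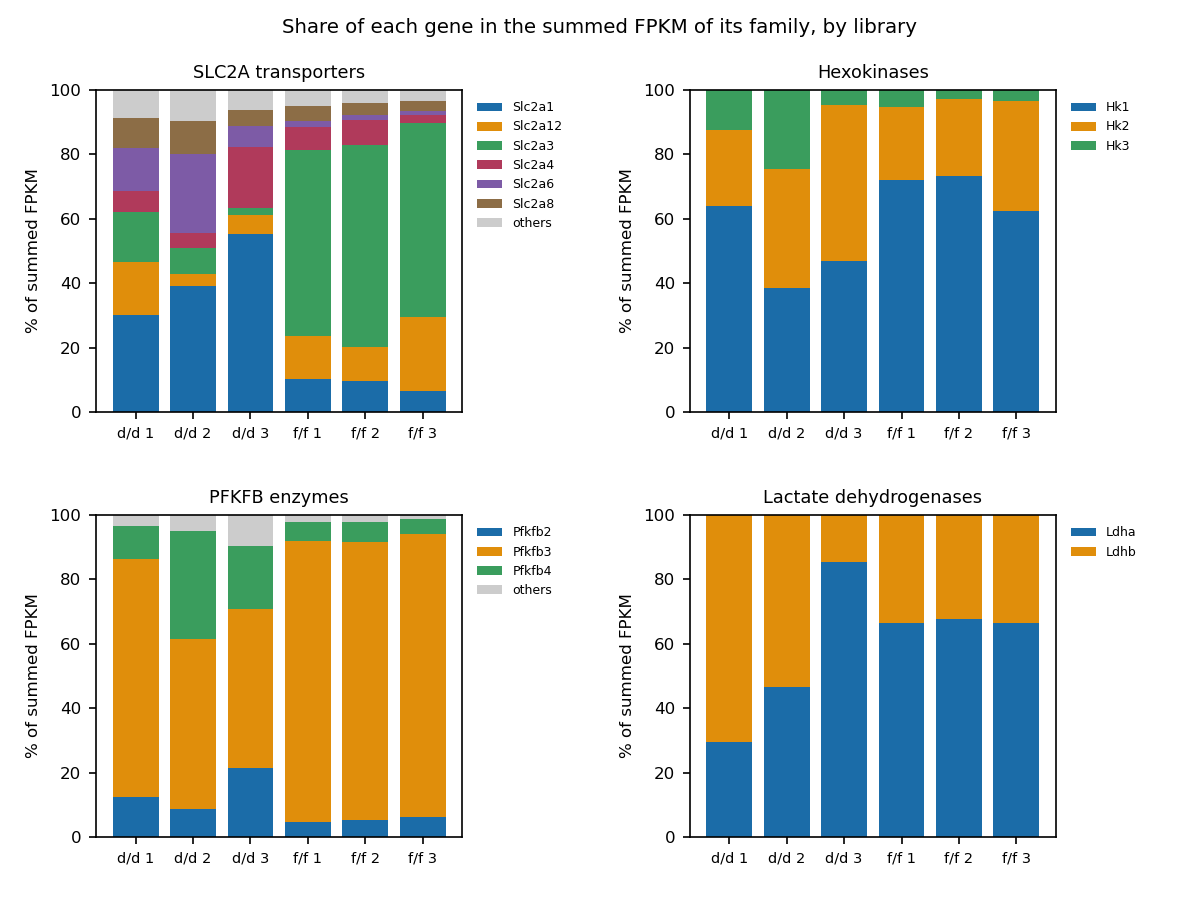
Share in percent of each gene in the summed FPKM of its family (Slc2a transporters, hexokinases, Pfkfb enzymes, lactate dehydrogenases), 1 stacked bar per library, with Mettl3 d/d libraries left of Mettl3 f/f libraries. Slc2a3 takes 2.27% to 15.6% of the Slc2a sum in d/d libraries, against 57.9% to 62.6% in f/f libraries.

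The carriers outside the Slc2a family did not pass. Slc16a1, the monocarboxylate carrier MCT1, was at 3.18, 9.53 and 13.8 FPKM in d/d libraries, against 5.32, 4.82 and 4.49 FPKM in f/f libraries. Slc16a3, the lactate exporter MCT4, was at 2.30, 22.2 and 6.61 FPKM in d/d libraries, against 3.39, 2.87 and 4.91 FPKM in f/f libraries. In both genes the d/d libraries lay on either side of the f/f range. The sodium-glucose cotransporter Slc5a1 was at 0.854 to 4.06 FPKM in all libraries. Both Slc16a genes are given by library because of values already seen.

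Hexokinase adds the first phosphate to glucose. Hk1, the widespread form, was at 23.4 to 32.4 FPKM in d/d libraries and 23.5 to 30.1 FPKM in f/f libraries (log2 difference -0.02, 95% interval -0.43 to 0.39). Hk2, the form of insulin-sensitive tissues, was at 11.9, 22.3 and 27.3 FPKM in d/d libraries, against 9.49, 9.46 and 12.8 FPKM in f/f libraries. Of the d/d libraries, replicate 1 lay within the f/f range (log2 difference 0.83, SE 0.31, limma, Benjamini-Hochberg adjusted p = 0.153, and 0.0303 without that library). Hk3, the form of myeloid cells, was at 6.26, 14.9 and 2.61 FPKM in d/d libraries, against 2.14, 1.16 and 1.31 FPKM in f/f libraries. All d/d libraries were above all f/f libraries, with a log2 difference of 1.58 and SE 0.53 that did not pass (limma, Benjamini-Hochberg adjusted p = 0.121, and 0.0423 without d/d replicate 3). Hk1 held 64.1%, 38.6% and 46.8% of the hexokinase sum in d/d libraries, against 72.1%, 73.4% and 62.5% in f/f libraries.

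Among the upper glycolytic enzymes, Pfkm fell and Aldoc rose. Pfkm, the muscle form of phosphofructokinase, was at 7.76, 9.46 and 9.09 FPKM in d/d libraries, against 15.6, 17.4 and 16.1 FPKM in f/f libraries. Both groups were tight, and the means of 8.77 ± 0.894 FPKM in d/d and 16.3 ± 0.921 FPKM in f/f libraries (SD, n = 3 each) differed 1.86-fold. The log2 difference was -0.83 with SE 0.13 (limma, Benjamini-Hochberg adjusted p = 0.0245). Without f/f replicate 1, 2 or 3 the adjusted p was 0.127, 0.134 and 0.103, at the same direction. The gene lies at chr15:98092589-98132451 on the plus strand, and its exons share 341 bases with Gm26513. Pfkl, the liver form, was at 18.8 to 32.2 FPKM in d/d and 20.9 to 23.4 FPKM in f/f libraries. Pfkp, the platelet form, was at 10.9 to 29.2 FPKM in d/d and 14.9 to 17.6 FPKM in f/f libraries. Pfkm held 20.7%, 15.2% and 15.9% of the phosphofructokinase sum in d/d libraries, against 30.2%, 29.8% and 30.6% in f/f libraries.

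Aldolase splits the hexose bisphosphate. Aldoc was at 19.4, 12.7 and 53.7 FPKM in d/d libraries, against 1.38, 2.76 and 0.689 FPKM in f/f libraries. The lowest d/d library was well above the highest f/f library, and d/d replicate 3 was the highest. The log2 difference was 3.33 with SE 0.56 and a 95% interval of 1.98 to 4.67 (limma, Benjamini-Hochberg adjusted p = 0.0266). It ran from 2.76 to 3.76 with 1 library left out, and the adjusted p was 0.128, 0.106 and 0.104 without f/f replicate 1, 2 or 3. The gene lies at chr11:78322968-78327781 on the plus strand. Aldoa, the main form, was at 279.7, 434 and 608 FPKM in d/d libraries, against 301, 327 and 295 FPKM in f/f libraries, and did not pass. Aldoc therefore stayed the minor form, with 6.49%, 2.83% and 8.12% of the aldolase sum in d/d libraries, against 0.457%, 0.836% and 0.233% in f/f libraries.

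Of the other upper enzymes, Gpi1, the glucose phosphate isomerase, was at 113, 121 and 156 FPKM in d/d libraries, against 126, 112 and 109 FPKM in f/f libraries. Tpi1, the triose phosphate isomerase, was at 110.5, 133 and 243 FPKM in d/d libraries, against 123, 120.1 and 134 FPKM in f/f libraries. The ranges overlapped in both genes, and d/d replicate 3 was the highest library in each.

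Fructose 2,6-bisphosphate is the strongest activator of phosphofructokinase, and the Pfkfb enzymes make and remove it. Pfkfb3, the form with the highest kinase activity, was at 34.3, 22.9 and 12.4 FPKM in d/d libraries, against 102, 98.1 and 103 FPKM in f/f libraries. The d/d libraries spread widely and all lay far below a tight f/f group. The means were 23.2 ± 11.0 FPKM in d/d and 101 ± 2.61 FPKM in f/f libraries (SD, n = 3 each). The log2 difference was -2.18 with SE 0.34 and a 95% interval of -3.00 to -1.37 (limma, Benjamini-Hochberg adjusted p = 0.0235). Without f/f replicate 1, 2 or 3 the adjusted p was 0.120, 0.117 and 0.0948. The gene lies at chr2:11471433-11554077 on the minus strand. It held 74.0%, 52.6% and 49.5% of the Pfkfb sum in d/d libraries, against 87.3%, 86.1% and 87.8% in f/f libraries. Pfkfb1, Pfkfb2 and Pfkfb4 did not pass, at 1.62 to 14.7 FPKM over all libraries, so the Pfkfb sum was 46.4, 43.6 and 25.0 FPKM in d/d libraries, against 116, 114 and 118 FPKM in f/f libraries.

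None of the 6 lower glycolytic enzymes passed. Eno1, the main enolase, was at 42.3, 74.6 and 107 FPKM in d/d libraries, against 41.6, 43.0 and 36.1 FPKM in f/f libraries (limma, Benjamini-Hochberg adjusted p = 0.191). Its d/d replicate 1 lay at the f/f level and d/d replicate 3 more than 2-fold above it. Eno3, the muscle enolase, was at 6.52, 7.45 and 5.06 FPKM in d/d libraries, against 9.54, 10.9 and 8.38 FPKM in f/f libraries. Those groups did not overlap, at a log2 difference of -0.54 (limma, Benjamini-Hochberg adjusted p = 0.122). Pkm, the pyruvate kinase of most tissues, was at 142, 279 and 242 FPKM in d/d libraries, against 217, 219 and 221 FPKM in f/f libraries. Its d/d libraries lay on both sides of a tight f/f group (log2 difference -0.04, 95% interval -0.66 to 0.58). Pgk1, which forms the first ATP of the path, was at 11.3, 17.8 and 22.8 FPKM in d/d libraries, against 11.1, 12.2 and 10.8 FPKM in f/f libraries, a gene given by library because of values already seen. Pgam1 and the neuronal enolase Eno2 were at 4.35 to 17.6 FPKM over all libraries, with overlapping groups.

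Lactate dehydrogenase turns pyruvate into lactate and back. Ldhb, the heart form, was at 755, 397 and 137 FPKM in d/d libraries, against 156, 170.3 and 144 FPKM in f/f libraries. Replicates 1 and 2 of d/d were more than 2-fold above the f/f level and replicate 3 was just below it (log2 difference 1.14, 95% interval -0.27 to 2.54, limma, Benjamini-Hochberg adjusted p = 0.27). Ldha, the muscle form, was at 315, 348 and 795 FPKM in d/d libraries, against 309.9, 359 and 285 FPKM in f/f libraries, so that only d/d replicate 3 was above the f/f range. Ldhb held 70.6%, 53.3% and 14.7% of the Ldha and Ldhb sum in d/d libraries, against 33.5%, 32.2% and 33.6% in f/f libraries. Neither gene passed, and Ldhb passed as higher when d/d replicate 3 was left out.

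The pyruvate dehydrogenase kinases hold pyruvate back from the mitochondria by switching off pyruvate dehydrogenase. Pdk3 was at 19.0, 18.8 and 19.4 FPKM in d/d libraries, against 31.1, 33.2 and 35.1 FPKM in f/f libraries. Both groups were tight and far apart, with means of 19.1 ± 0.301 FPKM in d/d and 33.1 ± 2.02 FPKM in f/f libraries (SD, n = 3 each). The log2 difference was -0.76 with SE 0.11 (limma, Benjamini-Hochberg adjusted p = 0.0203, and 0.116, 0.118 and 0.0928 without f/f replicate 1, 2 or 3). Pdk3 lies at chrX:93764607-93832201 on the minus strand. Pdk2, the most widespread kinase, was at 18.9, 9.09 and 7.98 FPKM in d/d libraries, against 26.9, 23.5 and 27.2 FPKM in f/f libraries. All d/d libraries were below all f/f libraries, but the log2 difference of -1.14 with SE 0.31 passed only without d/d replicate 1 (limma, Benjamini-Hochberg adjusted p = 0.0775 with all libraries). Pdk1, a target of hypoxia signalling, was at 5.75 to 12.1 FPKM in d/d and 5.66 to 7.36 FPKM in f/f libraries. Pdk4, a fasting-responsive kinase, was at 0.622 to 2.48 FPKM over all libraries.

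Glycogen is built from UDP-glucose, which Ugp2 makes. Ugp2 was at 59.3, 38.9 and 47.8 FPKM in d/d libraries, against 82.2, 89.8 and 112 FPKM in f/f libraries. The groups did not overlap, with means of 48.7 ± 10.3 FPKM in d/d and 94.7 ± 15.5 FPKM in f/f libraries (SD, n = 3 each). The log2 difference was -0.96 with SE 0.20 (limma, Benjamini-Hochberg adjusted p = 0.0417). The call was lost in 9 of the 13 other settings, with adjusted p of 0.0528 when d/d replicate 2 was left out, 0.0687 without replicate 3 of d/d, and 0.138, 0.157 and 0.143 without f/f replicate 1, 2 or 3. The gene lies at chr11:21321138-21371201 on the minus strand. Gbe1, the branching enzyme, is given by library because of values already seen. It was at 9.04, 6.17 and 11.2 FPKM in d/d libraries, against 13.1, 12.3 and 11.9 FPKM in f/f libraries, without overlap but short of the threshold (limma, Benjamini-Hochberg adjusted p = 0.216). Pygb, the brain form of glycogen phosphorylase, was at 50.2, 46.6 and 66.7 FPKM in d/d libraries, against 55.1, 68.7 and 49.8 FPKM in f/f libraries. Gys1, the muscle glycogen synthase, and Pygl, the liver phosphorylase, were at 5.64 to 19.4 FPKM over all libraries with overlapping groups, and Pygm, the muscle phosphorylase, was listed at 0 in all 6.

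All d/d libraries were above all f/f libraries in 3 of the 43 genes (Aldoc, Hk3 and Slc2a6), against 18.1% of all genes tested. All d/d libraries were below all f/f libraries in 10 genes, the 6 that fell and Slc2a13, Pdk2, Eno3 and Gbe1, against 17.8% of all genes. Together these 13 genes compare with 35.9% of all genes tested, so separation of the groups was no more frequent among the 43 genes than among all genes. At an unadjusted p under 0.05 there were 13 genes of the 43 and 3460 of all genes tested.

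**Figure D3:**
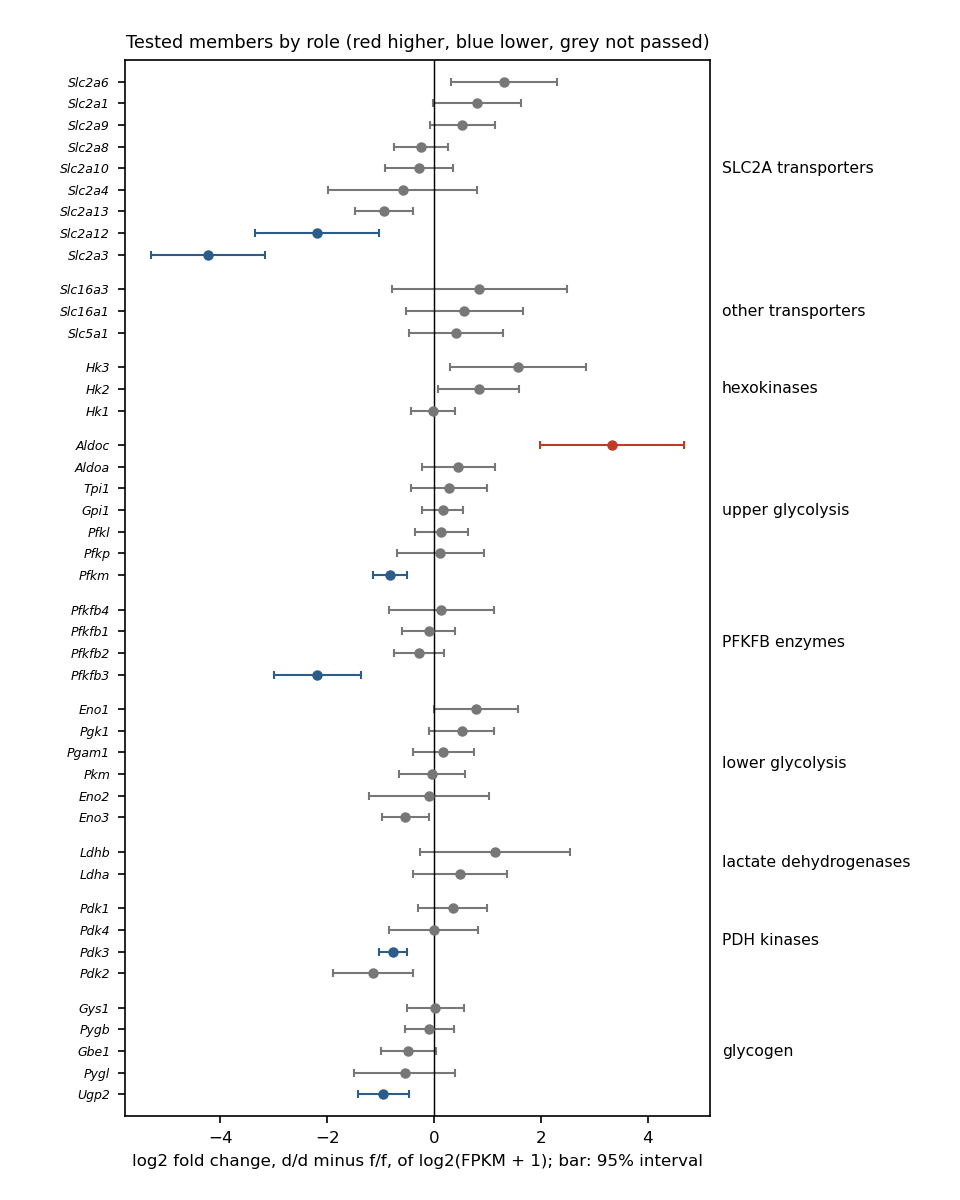
Log2 difference of Mettl3 d/d minus Mettl3 f/f on the log2(FPKM + 1) scale with its 95% interval for the 43 tested genes, grouped by role, red for higher, blue for lower and grey for genes that did not pass. Aldoc stands at 3.33 and Slc2a3 at -4.23, and the intervals of most other genes cross 0.

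The d/d libraries differed far more among themselves than the f/f libraries did. The median SD of log2(FPKM + 1) over the 43 genes was 0.570 in d/d and 0.125 in f/f libraries, and it was larger in d/d for 40 of the 43. Over all genes tested the medians were 0.301 in d/d and 0.126 in f/f libraries. The range was above 1 on the log2 scale in 23 genes among d/d and in 3 genes among f/f libraries. On the log2(FPKM + 1) scale and against the f/f mean, d/d replicate 1 was 2-fold or more above in 4 genes and below in 5. Replicate 2 of d/d was above in 8 genes and below in 6, and replicate 3 was above in 7 and below in 5. No f/f library was 2-fold away from the f/f mean on that scale in any of the 43 genes.

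The highest d/d library differed between genes. How often each d/d library was the highest over all genes was not computed, so these counts describe the 43 genes only. Of the 43 genes, d/d replicate 3 was the highest d/d library in 21, among them Aldoa, Aldoc, Tpi1, Pgk1, Eno1, Ldha, Slc2a1, Hk2 and Slc16a1. Epcam, Krt8 and 8 further epithelial markers summed to 2242, 930.4 and 3757 FPKM in d/d libraries, against 1284, 1249 and 1437 FPKM in f/f libraries. Of the 10, 3 were higher by the test, Epcam and Krt7 among them, against 3.49% of all genes tested. Cldn3 of this list went the other way, at 390, 76.3 and 294 FPKM in d/d libraries, against 433, 466 and 483 FPKM in f/f libraries, without overlap and without passing the test. Replicate 2 of d/d was the highest d/d library in 13 genes, among them Hk3, Slc2a6, Slc16a3, Pfkfb4, Eno2, Pfkp and Pygl. The 6 neutrophil markers summed to 28.5, 1130.0 and 27.4 FPKM in d/d libraries, against 8.80, 5.58 and 13.1 FPKM in f/f libraries, and none of the 5 tested passed. The 5 macrophage markers summed to 504, 1723 and 239.6 FPKM in d/d libraries, against 219.5, 182 and 156 FPKM in f/f libraries. Of these 5, only Cd68 rose by the test, against 3.49% of all genes tested. S100a9 of neutrophils was at 0 in d/d replicate 3. Ly6g of the same list was instead highest in d/d replicate 3 and carried most of the neutrophil sum there. It was at 3.59, 5.80 and 25.0 FPKM in d/d libraries, against 0.927 to 1.15 FPKM in f/f libraries, without overlap and without passing the test. The genes named by library in this paragraph were picked after their values were seen, and the part of these cell types in their levels was not tested.

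**Figure D4:**
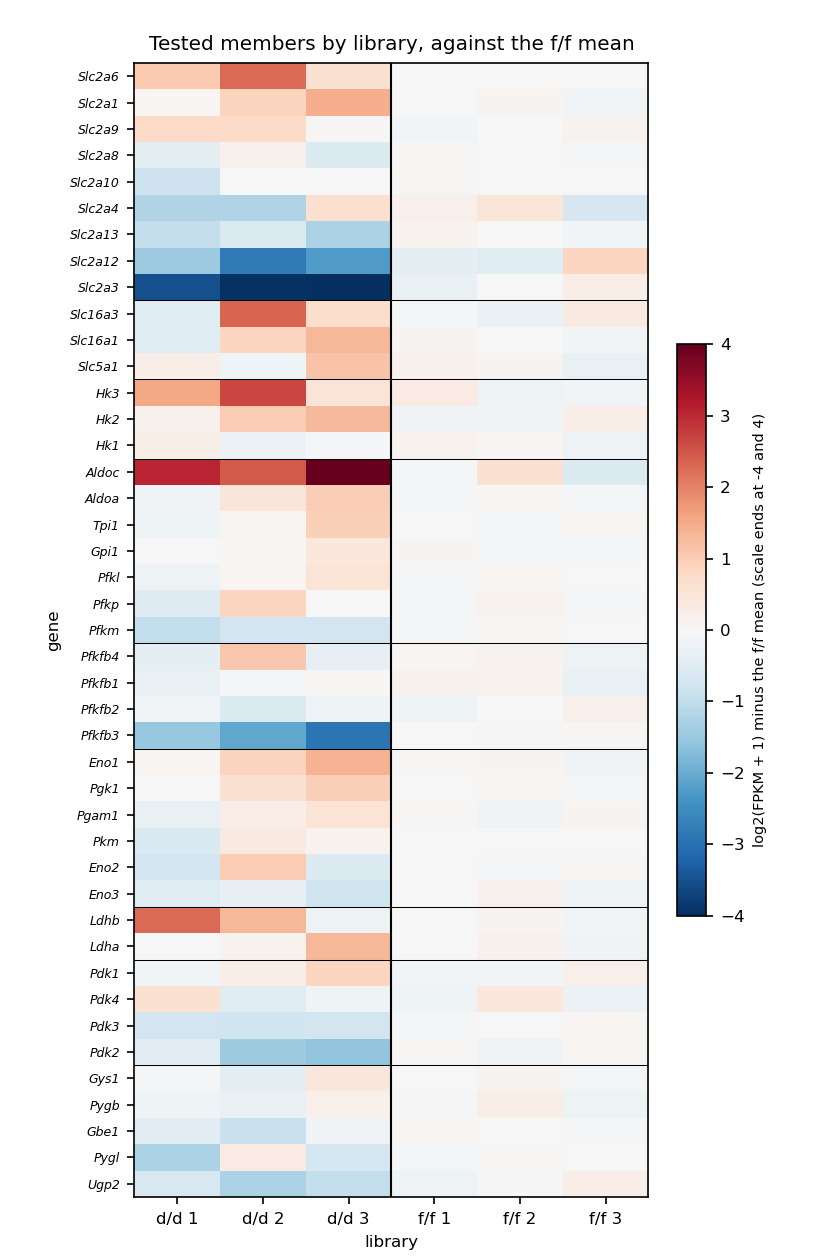
Log2 of each library's level over the f/f mean (log2(FPKM + 1) scale) for the 43 tested genes grouped by role, 1 column per library and red for higher, with Mettl3 d/d columns left of Mettl3 f/f columns. The d/d columns differ from each other, with replicate 3 highest in 21 genes and replicate 2 in 13, while no f/f library is 2-fold from the f/f mean.

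Markers of further cell types are given beside the genes that fell. The 6 endothelial markers summed to 154, 196 and 108 FPKM in d/d libraries, against 293, 329.9 and 213 FPKM in f/f libraries. In 5 of the 6, all d/d libraries were below all f/f libraries, against 17.8% of all genes tested. Of the 6, Cdh5 alone fell by the test, against 3.81% of all genes tested. The 5 gland markers summed to 60.3, 12.1 and 2.07 FPKM in d/d libraries, against 53.4, 69.8 and 80.7 FPKM in f/f libraries. Of the 4 tested, Spink1 and Ttr fell, against 3.81% of all genes tested. The 8 smooth muscle markers summed to 1135, 2068 and 4782 FPKM in d/d libraries, against 3767, 5993 and 2507 FPKM in f/f libraries. Of the 8, only 1, Smtn, fell, against 3.81% of all genes tested. The 6 skeletal muscle markers summed to 10.1, 11.5 and 72.8 FPKM in d/d libraries, against 85.6, 158 and 34.9 FPKM in f/f libraries, with Myh4 at 0 in all and none of the 3 tested called. In the sums of both muscle lists, d/d replicates 1 and 2 were low and f/f replicate 2 was high. Lmod1 of the smooth muscle list differed, at 28.2 FPKM in d/d replicate 2, against 14.0 to 26.2 FPKM in f/f libraries. The 8 stromal markers summed to 1759, 4265 and 3307 FPKM in d/d libraries, against 2920.0, 3098 and 2769 FPKM in f/f libraries, and none passed. Dcn and the collagen genes carry much of that sum. In 2 of the 8, Pdgfra and Vim, all d/d libraries were below all f/f libraries, against 17.8% of all genes tested. Their means were 2.45-fold and 2.27-fold lower in d/d. Lum and Dcn went the other way, with means 2.29-fold and 1.61-fold higher in d/d and overlapping groups. Over the 8 stromal markers, 4 log2 differences were positive and 4 negative. The part of any of these lists in the fall of Slc2a3, Slc2a12, Pfkfb3, Pfkm, Pdk3 and Ugp2 was not tested.

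Adipocyte, red blood cell and embryo markers were also read. The 6 markers of trophoblast and embryo summed to 2.29, 1.63 and 0.736 FPKM in d/d libraries, against 6.50, 4.41 and 3.81 FPKM in f/f libraries, and Cdx2 and Pou5f1 were listed at 0 in all 6. The 5 adipocyte markers summed to 168, 11.2 and 0.111 FPKM in d/d libraries, against 4.21, 7.94 and 0.0217 FPKM in f/f libraries, with Adipoq at 0 in d/d replicate 3 and f/f replicate 3. The sum in d/d replicate 1 was carried by Cfd, at 141 FPKM, with the other adipocyte markers at 0.0746 to 16.7 FPKM in that library. The part of such cells in the levels of that library was not tested. The 5 red blood cell genes summed to 24.2, 30.6 and 76.7 FPKM in d/d libraries, against 68.2, 215 and 71.9 FPKM in f/f libraries, and none of the 4 tested passed.

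Several of the most abundant genes have near copies in the genome that can share reads with them. Counting pseudogenes with at least 90% identity over at least 300 bases, Ldha had 8, Pkm 6, Eno1 5, Aldoa 4, Pgk1 4, Pgam1 3, Tpi1 2, and Gpi1, Ldhb and Pygl 1 each (GENCODE M21 on GRCm38). Their levels are uncertain for this reason. None of the 7 called genes had such a copy.

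Promoter windows of Pfkfb3, Pfkm and Ugp2, which fell, are shown. They were picked from windows that held a match to the sequence searched for and few bases of annotated exons. RefSeq windows on GRCm38.p6, reaching 250 bases up to each start, were at hand for 45 of the 48 genes, Slc2a3 not among them. They were searched on both strands for ACGTG, the core of the hypoxia response element, and for CACGTG, the E-box read by Myc, which contains ACGTG on both strands. The windows below are written 5′ to 3′ on the gene's strand, with matches to ACGTG or its reverse complement in capitals.
Pfkfb3, second start, chr2:11502091-11502340, minus strand: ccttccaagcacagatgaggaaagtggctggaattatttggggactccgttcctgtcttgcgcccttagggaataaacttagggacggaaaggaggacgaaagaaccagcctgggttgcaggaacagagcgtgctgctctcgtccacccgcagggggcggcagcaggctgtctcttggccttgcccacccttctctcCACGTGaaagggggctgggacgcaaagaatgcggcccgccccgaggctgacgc
Pfkm, first start, chr15:98092339-98092588, plus strand: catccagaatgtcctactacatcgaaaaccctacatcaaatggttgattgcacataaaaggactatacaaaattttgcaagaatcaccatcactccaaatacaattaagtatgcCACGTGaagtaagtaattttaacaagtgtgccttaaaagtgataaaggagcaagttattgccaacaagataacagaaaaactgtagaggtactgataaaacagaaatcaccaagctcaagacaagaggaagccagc
Ugp2, first start, chr11:21371268-21371517, minus strand: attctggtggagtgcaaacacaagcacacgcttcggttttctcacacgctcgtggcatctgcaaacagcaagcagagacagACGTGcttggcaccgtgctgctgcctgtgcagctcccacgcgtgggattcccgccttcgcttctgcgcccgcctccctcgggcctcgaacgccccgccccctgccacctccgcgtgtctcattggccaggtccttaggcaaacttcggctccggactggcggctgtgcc

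The Pfkfb3 and Pfkm windows each hold 1 E-box within their capitals, and the Ugp2 window holds none. Of 61 windows of the 43 tested genes, 37.7% held ACGTG and 11.5% held CACGTG. In 13175 windows of all genes tested the shares were 21.1% and 8.20%, and in all 32851 windows they were 16.6% and 6.02%. Of the 12 windows of called genes, 6 held ACGTG, from 4 of 6 genes. No match was found in the Slc2a12 window, either Aldoc window, the last Pfkm windows or the second Ugp2 window. The windows shown, being picked for a match, do not stand for the rest. A match says only that the letters are present.

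GGACU is one of the sequences in which Mettl3 methylates adenosine, so counts of it do not cover every possible site. In the longest coding transcript (GENCODE M21), written as DNA, GGACT occurred 6 times in Slc2a3, 5 times in Slc2a12 and Pfkfb3, 4 times in Aldoc, 3 times in Pfkm and 1 time each in Pdk3 and Ugp2. The median per kilobase was 1.04 in the 7 called genes, 1.37 in the 36 tested genes that did not pass, and 1.06 in all genes tested. Methylation was not measured here.

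Genes around glycolysis were read from further lists. Of 10 tested genes of glycolysis and lactate handling outside the 48, 2 rose and 1 fell, against 3.49% and 3.81% of all genes tested. Gpd1, which draws triose phosphate off to glycerol phosphate, was at 4.46, 10.9 and 8.91 FPKM in d/d libraries, against 0.493, 0.562 and 1.61 FPKM in f/f libraries (log2 difference 2.24, limma, Benjamini-Hochberg adjusted p = 0.0256). Bpgm, which makes the ligand that lowers the oxygen affinity of haemoglobin, was at 13.3, 22.4 and 14.8 FPKM in d/d libraries, against 6.45, 7.76 and 7.79 FPKM in f/f libraries (adjusted p = 0.0398 by the same test). Emb, a partner protein of monocarboxylate carriers, was at 40.3, 43.9 and 28.3 FPKM in d/d libraries, against 78.0, 78.2 and 76.5 FPKM in f/f libraries (log2 difference -1.05, adjusted p = 0.0277). In these 3 genes the groups did not overlap. The list had a median log2 difference of 0.51, against 0.02 over all genes.

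Among 16 tested glycogen genes outside the 48, 1 rose, against 3.49% of all genes tested. This was Ppp1r3b, which brings protein phosphatase to glycogen, at 3.38, 4.53 and 6.73 FPKM in d/d libraries, against 1.27, 1.60 and 0.913 FPKM in f/f libraries (limma, Benjamini-Hochberg adjusted p = 0.0347). Among 4 tested genes of gluconeogenesis, 1 fell, against 3.81% of all genes tested: Slc37a4, the glucose 6-phosphate carrier of the endoplasmic reticulum, was at 7.60, 6.88 and 9.62 FPKM in d/d libraries, against 16.1, 13.9 and 14.0 FPKM in f/f libraries (limma, Benjamini-Hochberg adjusted p = 0.0385). None of the 8 genes of the pentose phosphate pathway passed, although all 8 differences were positive with a median of 0.30. H6pd, the hexose 6-phosphate dehydrogenase of the endoplasmic reticulum, was at 22.1, 46.4 and 49.8 FPKM in d/d libraries, against 16.9, 16.5 and 16.8 FPKM in f/f libraries (limma, Benjamini-Hochberg adjusted p = 0.081). The oxidative enzyme Pgd of this pathway was at 72.8, 87.5 and 159 FPKM in d/d libraries, against 50.9, 51.3 and 54.8 FPKM in f/f libraries (limma, Benjamini-Hochberg adjusted p = 0.102). None of 10 genes of pyruvate entry, 6 of the hexosamine pathway, 4 of polyol and fructose use and 16 of the tricarboxylic acid cycle passed, with medians of -0.02, 0.28, -0.20 and -0.06. Pcx, the pyruvate carboxylase, was at 32.2, 2.39 and 7.01 FPKM in d/d libraries, against 66.2, 71.5 and 95.6 FPKM in f/f libraries, without overlap (limma, Benjamini-Hochberg adjusted p = 0.0714).

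Of 19 known regulators of glucose use, Myc alone passed, against 7.30% of all genes tested. It was at 28.7, 32.9 and 25.9 FPKM in d/d libraries, against 75.4, 64.2 and 82.1 FPKM in f/f libraries, a fall of the transcription factor that drives many glycolytic genes (log2 difference -1.31, limma, Benjamini-Hochberg adjusted p = 0.0116). Hif1a, the oxygen-regulated subunit of the hypoxia factor, was at 54.9, 62.4 and 66.7 FPKM in d/d libraries, against 98.0, 101 and 82.7 FPKM in f/f libraries, without overlap (limma, Benjamini-Hochberg adjusted p = 0.0507). Of 14 hypoxia-responsive genes, 1 rose, against 3.49% of all genes tested. This was Egln3, a prolyl hydroxylase of the hypoxia factor, at 7.30, 20.1 and 40.3 FPKM in d/d libraries, against 1.76, 2.14 and 1.62 FPKM in f/f libraries (limma, Benjamini-Hochberg adjusted p = 0.0384). The list's median was 0.15. Without f/f replicate 1, 2 or 3, limma called none of Gpd1, Bpgm, Emb, Ppp1r3b, Slc37a4, Myc and Egln3. Bpgm also missed the threshold without d/d replicate 3 (adjusted p = 0.0547), Egln3 without d/d replicate 2 (0.0582) and Slc37a4 without d/d replicate 1 (0.0619), all by limma with Benjamini-Hochberg adjustment. With no filter on low values, Bpgm (0.0610), Egln3 (0.0624), Ppp1r3b (0.0538) and Slc37a4 (0.0572) missed it as well.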

How the data were processed

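Total RNA from whole uteri was sequenced in 3 Mettl3 d/d and 3 Mettl3 f/f libraries, extracted with TRIzol and prepared with a TruSeq RNA kit per the labels' protocols. The authors deposited 1 value per gene and library, taken here as FPKM. The file headers give no unit, so it was inferred from decimal values with unequal totals and from Cufflinks, which writes FPKM. HISAT2 2.2.1, Cufflinks 2.2.1 and the builds mm9 and mm10 are named in the submitters' processing notes, without their roles. For annotation and strand use, nothing is stated in the sources used. An exact 0 may be a failed estimate, and 4161 genes were listed at 0 in all libraries.

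Of 21936 rows, 36 that repeated a symbol were dropped in favour of the higher row, 1 of them a second Aldoa row. Genes at 1 FPKM or more in at least 3 of 6 libraries (12979) were compared on log2(FPKM + 1), a scale that understates changes of low genes, with limma 3.58.1 in R 4.3.3 (genotype as the term, empirical Bayes with intensity trend, two-sided, Benjamini-Hochberg adjustment over all genes tested, threshold 0.05). The code was tested on simulated data with each genotype's own spread, where the share of false calls was above the threshold. Folds are ratios of mean FPKM except where the log2 scale is named, and log2 differences are d/d minus f/f. Replicate numbers were not used to pair the libraries in the main test. Deviations of same-numbered libraries correlated at -0.02, 0.02 and -0.02 over genes, which cannot show whether they shared a batch.

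The genes and lists were chosen with earlier results of these data known. Values by library were given to genes that were called, had an unadjusted p under 0.05 or averaged at least 50 FPKM in 1 genotype, and to a few named as already seen, and in each further list to genes that were called and up to 3 with the lowest p. Alternatives were another pseudocount (0.1), no filter, median-ratio and TPM scaling, spread weighted by genotype, no intensity trend, a replicate block, and leaving out each library. Gene positions and exon overlaps came from GENCODE M21 on GRCm38, and pseudogene copies from minimap2 2.31. Values of some genes in these lists are not reported here.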

Additional observations from a re-analysis of the deposited data

How the results depend on the processing

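With 1 library left out, the 43 tested genes gave 0 to 6 higher and 0 to 7 lower, and all genes gave 0 to 1367 called. The low end came from the f/f libraries. Without f/f replicate 1 limma called 0 of all genes (2292 at an unadjusted p under 0.05, 11 of them among the 43). Without f/f replicate 2 it called 30 and without f/f replicate 3 it called 111, with 0 of the 43 in either case (10 and 12 at an unadjusted p under 0.05). The most calls over all genes, 1367, came without d/d replicate 2. The most among the 43 came without d/d replicate 1, where Aldoc, Eno1, Hk2, Pgk1, Slc16a1 and Slc2a1 were higher and Pdk2 joined the 6 lower genes. With the replicate number as a block, limma called 100 genes and 0 higher and 0 lower of the 43 (13 of the 43 at an unadjusted p under 0.05). The block also ended the calls of Gpd1, Bpgm, Emb, Ppp1r3b, Slc37a4, Myc and Egln3. The labels state no pairing by number, and in its deviations no library correlated best with its own number. A shared batch cannot be judged from this. The cause of these changes was not tested.

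Under the other pseudocount, the unfiltered fit, both scalings, the weighted spread and the fit without trend, 1 of the 43 was higher and 4 to 7 were lower, with 683 to 966 genes called in all. Slc2a3, Pfkfb3, Pfkm, Pdk3 and Aldoc were called in each of these 6 settings, and none of the 20 called or near-threshold genes followed through all 13 settings changed direction. TPM scaling moved the median difference of all genes to -0.08 and gave 338 higher against 528 lower. The depth is unknown, so no counting error can be given.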
